A study of Mus musculus with 9 samples.

Results

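The proteasome and immunoproteasome genes of mouse splenic B cells are described here in 3 groups of mice. Members were all genes of the deposited expression table whose symbol begins with Psma to Psmg followed by a digit, which gave 50 of its 22174 genes. Of these, 48 passed the expression filter and were tested, among the 11247 genes tested in all. The 2 members that could not be tested are specific to other tissues: on the coding-sequence reference Psma8, the alpha subunit of the testis, had at most 3 reads in any mouse, and Psmb11, the catalytic subunit of the thymic cortex, had 0 reads in all 9 mice. On the standard reference Psmb11 had 1 to 18 reads. Another 2 members carry the symbol pattern without being established subunits: Psmc3ip, a meiotic recombination factor, and Psme2b, a near copy of Psme2.

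RNA was sequenced from B cells purified by negative selection from spleens of 3 Eµ-MTCP1, 3 Eµ-TCL1 and 3 wildtype mice, 1 library per mouse, on the C57/BL6NTac strain named in the labels. Eµ-MTCP1 mice carry human MTCP1 (hMTCP1) behind a VH promoter and the immunoglobulin heavy chain Eµ enhancer, which direct it to B cells, and all 3 came from founder line Z36, whose transgene sits in an intron of Fam168a. Eµ-TCL1 mice carry human TCL1 (hTCL1), and the wildtype mice were littermates without hMTCP1. The transgenic mice were of matched age and were taken when leukemia was advanced, so genotype and disease cannot be told apart. The age of the wildtype mice was not given in the sources used here. On the deposited log2-like scale, human MTCP1 lay between 11.12 and 12.3 in the Eµ-MTCP1 mice and between 5.85 and 6.19 in the other mice. Human TCL1A lay between 14.93 and 15.6 in the Eµ-TCL1 mice and between 6.04 and 6.96 elsewhere. Each library therefore expressed the transgene of its label. The design set the B cells of each model against normal B cells and the models against each other.

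The proteasome degrades proteins tagged with ubiquitin. Its core is a stack of alpha and beta rings in which 3 beta subunits, Psmb5, Psmb6 and Psmb7, cut the protein, and a regulatory particle of ATPases and other subunits recognizes, unfolds and feeds in the substrate. Interferon-gamma induces replacements for the cutting subunits, Psmb8, Psmb9 and Psmb10, and the PA28 activator formed by Psme1 and Psme2. Particles built with these 5 subunits favour peptides that fit MHC class I molecules, and lymphoid cells such as B cells express them without infection.

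Reads assigned on the coding-sequence reference ranged from 6464092 to 8053011 per library. Values are read counts scaled to a common library size (counts per 1000000, CPM) after scaling by trimmed mean of M values (TMM), and a gene is called where the Benjamini-Hochberg adjusted p of edgeR's quasi-likelihood test over all 11247 genes was under 0.05. Immunoglobulin transcripts made up 3.38% to 15.6% of reads. Mitochondrial transcripts made up 10.7% in wildtype mouse Z2754 and at most 8% in the other mice. Wildtype mouse Z2755 was sequenced on a lane of its own, so its lane cannot be told apart from the mouse. The summed level of 6 B cell markers, all detected, was 6971 to 10600 CPM over the 9 mice. In bulk RNA, fewer cells of a type and less RNA per cell cannot be told apart.

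Promoter windows are printed for the 4 members called in any comparison, Psme2, Psmb5, Psma5 and Psmd14, and for 2 further inducible genes, Psmb8 and Psme1, chosen after their matches were seen. They run from 250 bases before to 50 bases after the RefSeq start (GRCm38.p6), 5′ to 3′ on the strand of the gene. Windows were used for 42 of the 50 members. Those of Psmb8, Psmb9 and Psme1 lie wholly inside the annotated genes, whose 5′ ends are further upstream. Sequence before those ends was not searched. Letters in capitals mark a match, on either strand, to GAAANNGAA (the core bound by interferon regulatory factors), TTCNNNGAA (the gamma-activated site) or TGACNNNGC (the antioxidant response element bound by Nfe2l1 and Nfe2l2). The first window is that of the inducible subunit Psmb8, the second that of the PA28 subunit Psme1, the third that of Psmb5, the constitutive counterpart of Psmb8, the next 2 those of Psma5 and Psmd14, and the last that of the PA28 subunit Psme2.
Psmb8, chr17:34197945-34198244, plus strand: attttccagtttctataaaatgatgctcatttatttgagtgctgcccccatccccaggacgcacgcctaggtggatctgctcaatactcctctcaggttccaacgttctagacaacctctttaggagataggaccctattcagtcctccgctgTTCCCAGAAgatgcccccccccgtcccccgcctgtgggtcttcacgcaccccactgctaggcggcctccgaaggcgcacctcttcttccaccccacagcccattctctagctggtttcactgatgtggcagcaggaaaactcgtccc
Psme1, chr14:55578244-55578543, plus strand: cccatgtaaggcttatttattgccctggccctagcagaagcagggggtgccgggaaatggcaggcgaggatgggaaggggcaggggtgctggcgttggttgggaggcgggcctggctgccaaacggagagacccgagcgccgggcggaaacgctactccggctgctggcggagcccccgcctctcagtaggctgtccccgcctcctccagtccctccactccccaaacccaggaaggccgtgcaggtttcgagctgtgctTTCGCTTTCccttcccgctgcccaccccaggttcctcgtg
Psmb5, chr14:54617946-54618245, minus strand: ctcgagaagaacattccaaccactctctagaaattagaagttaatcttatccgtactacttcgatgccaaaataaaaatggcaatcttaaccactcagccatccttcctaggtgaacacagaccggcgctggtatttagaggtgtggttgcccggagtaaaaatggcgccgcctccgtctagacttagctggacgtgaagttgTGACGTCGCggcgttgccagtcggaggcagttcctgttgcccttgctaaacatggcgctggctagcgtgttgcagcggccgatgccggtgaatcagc
Psma5, chr3:108256676-108256975, plus strand: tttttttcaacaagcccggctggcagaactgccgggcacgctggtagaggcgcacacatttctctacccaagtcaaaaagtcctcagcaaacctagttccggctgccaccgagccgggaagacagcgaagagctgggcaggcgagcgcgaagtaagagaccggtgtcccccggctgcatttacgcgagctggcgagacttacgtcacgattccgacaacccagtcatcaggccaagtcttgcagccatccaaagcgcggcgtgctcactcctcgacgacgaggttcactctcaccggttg
Psmd14, chr2:61711444-61711743, plus strand: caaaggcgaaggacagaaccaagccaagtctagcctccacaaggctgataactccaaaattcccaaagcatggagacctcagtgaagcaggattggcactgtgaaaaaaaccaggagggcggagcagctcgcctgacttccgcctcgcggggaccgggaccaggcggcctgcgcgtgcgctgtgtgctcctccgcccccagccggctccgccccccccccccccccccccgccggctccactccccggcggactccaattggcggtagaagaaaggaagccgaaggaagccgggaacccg
Psme2, chr14:55590972-55591271, minus strand: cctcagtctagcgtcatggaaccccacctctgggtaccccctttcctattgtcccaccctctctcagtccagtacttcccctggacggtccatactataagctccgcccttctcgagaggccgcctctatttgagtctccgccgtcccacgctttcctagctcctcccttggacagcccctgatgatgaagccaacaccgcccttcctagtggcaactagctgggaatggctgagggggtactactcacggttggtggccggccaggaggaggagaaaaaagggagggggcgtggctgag
The gamma-activated letters stood 97 to 89 bases before the start of Psmb8, and the antioxidant response letters 47 to 39 bases before that of Psmb5. The letters bound by interferon regulatory factors began 10 bases after the start of Psme1. None of the 3 patterns occurred in the windows of Psma5 and Psmd14, nor in those of the inducible genes Psme2, Psmb9 and Psmb10. Among the 5 inducible genes, GAAANNGAA thus occurred in 1 and TTCNNNGAA in 1. Among the 42 members, GAAANNGAA occurred in 7, TTCNNNGAA in 3 and TGACNNNGC in 6. That was 7, 3 and 6 of their 45 windows, while 8.56%, 8.30% and 12.4% of all 32851 windows of this length held them. CCGGAAG (the ETS site) and CCAAT (the CCAAT box) were also searched and are not marked. They occurred in 16 and 15 of the 45 windows, against 8.86% and 37.4% of all windows. Of the 5 inducible genes, 0 and 1 held them. These matches describe the letters of the windows and were not tested for binding.

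Transcript levels per length, in TPM on the coding reference, ordered the members in wildtype B cells. Psmb8 stood first at 676 ± 72.8 TPM (mean ± SD, n = 3 in every group). Psmb1, a non-catalytic beta subunit, followed at 479 ± 19.1 TPM, and Psme2 came next at 427 ± 45.8 TPM. Psme1 at 373 ± 21.6 TPM and the alpha subunit Psma7 at 339 ± 36.6 TPM ranked after these and overlapped in spread. Psmb9 at 293 ± 5.41 TPM, its constitutive counterpart Psmb6 at 279 ± 44.9 TPM and Psmb10 at 264 ± 35.5 TPM formed a further set of neighbours within their spread, and Psmb3, next at 245 ± 29.5 TPM, lay within the spread of Psmb10. The 5 inducible genes ranked among the first 8 in wildtype mice, while Psmb10 ranked 12 in Eµ-MTCP1 mice. The order of single genes depended on the reference. On the standard reference wildtype Psmb8 was again first at 633 ± 76.1 TPM and Psmb6 second at 374 ± 63.3 TPM. Psmb10 stood there at 233 ± 39.2 TPM and Psmb9 at 211 ± 13.8 TPM, ranks 7 and 8, and Psmb1 at 155 ± 5.38 TPM, rank 12. The 14 constitutive core subunits ran from 53.7 TPM for Psmb7, which Psmb10 can replace, to 479 TPM for Psmb1, a range of 8.92-fold. The 17 subunits of the regulatory particle ran from 35.1 TPM for Psmd1 to 178 TPM for Psmd8, which is 5.07-fold. On the standard reference these ranges were 7.60-fold and 5.57-fold, with Psmb6 highest in the core. Psmb8 was also first in both models, at 678 ± 78.5 TPM in Eµ-MTCP1 and 999 ± 202 TPM in Eµ-TCL1 mice.

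Across the tested members, most fold changes were above 0 in both models, but few single genes passed the test. In Eµ-MTCP1 against wildtype the median log2 fold change was 0.29 over the 48 members and -0.02 over all genes, and 38 of the 48 were above 0 against 48.6% of all genes. In Eµ-TCL1 against wildtype the member median was 0.41 against -0.01 over all genes, with 40 of 48 above 0. With each model given equal weight, the median was 0.36 against -0.02, again with 40 of 48 above 0. The comparisons with wildtype share the same 3 control mice, so their values are given side by side only.

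The called members were 1 of 48 in Eµ-MTCP1 mice, where 5.43% of all genes were called higher, and 2 of 48 in Eµ-TCL1 mice, where 5.07% were. For the mean of both models 3 of 48 were called, against 6.94% of all genes called higher. In this fit the shares of members called were thus near or below those of all genes. This turned with other processing, since DESeq2 called 5, 9 and 15 members higher, or 10.4%, 18.8% and 31.2% of the 48, against 8.41%, 8.31% and 10.5% of all genes. The deposited gene counts gave 4.17%, 16.7% and 12.5% of members against 5.83%, 5.83% and 7.45% of all genes. No member was called lower in any of these comparisons, where 3.94%, 4.08% and 6.14% of all genes were called lower in Eµ-MTCP1, Eµ-TCL1 and the mean of both. At an unadjusted p under 0.05 the higher members numbered 12 in Eµ-MTCP1 (13.5% of all genes), 21 in Eµ-TCL1 (13.2%) and 20 for the mean of both (14.8%), and 1, 0 and 1 members were lower, against 11.4%, 11.9% and 14.3% of all genes. Members with every transgenic mouse above every wildtype mouse numbered 17 in Eµ-MTCP1 (14.7% of all genes), 26 in Eµ-TCL1 (16.6%) and 15 for both together (9.45%). These shares of members were above those of all genes, while members of 1 complex are not independent of each other.

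**Figure D1:**
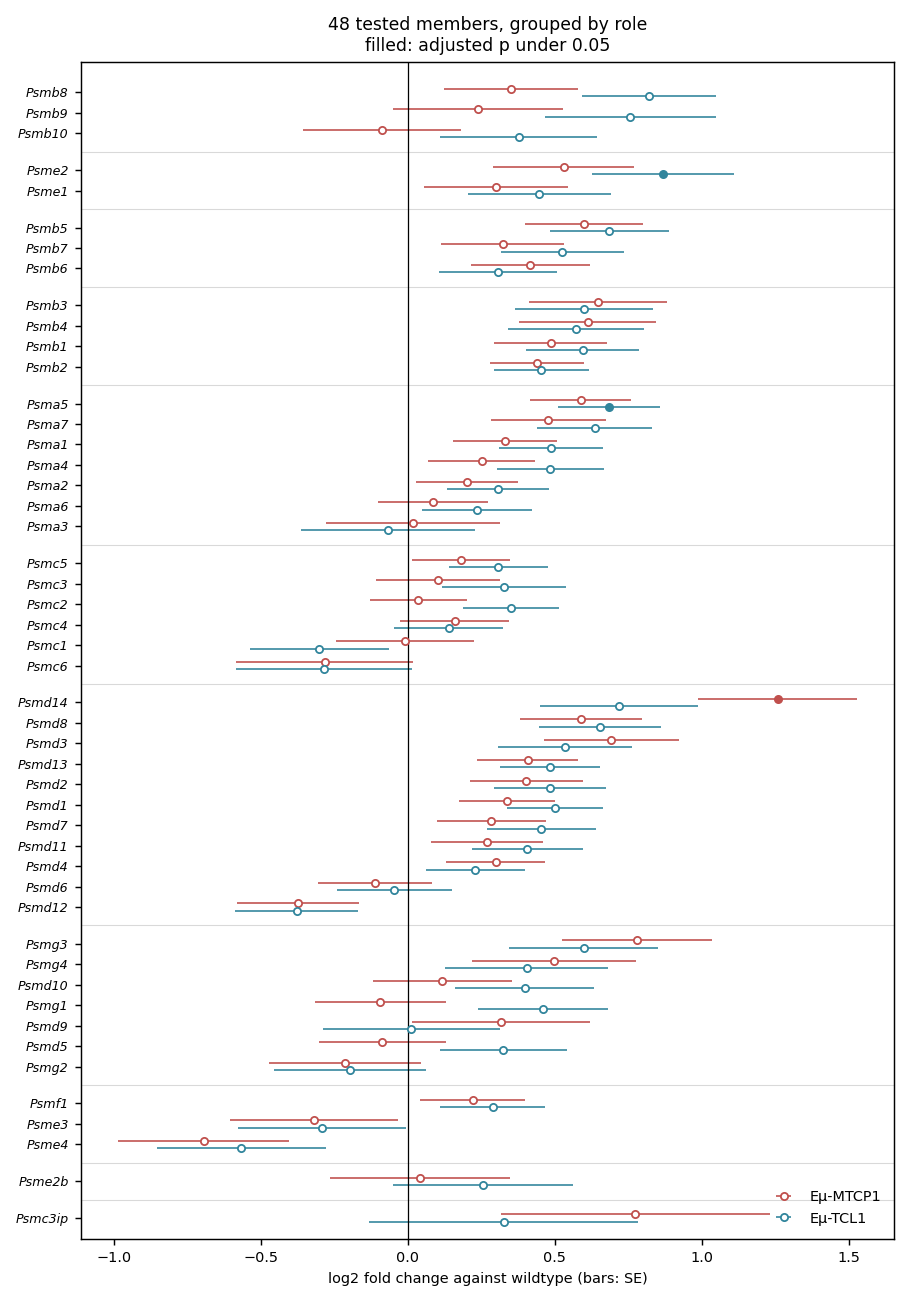
Log2 fold change against wildtype (x axis) of the 48 tested members, 1 row per gene grouped by role, for Eµ-MTCP1 and Eµ-TCL1 mice (3 mice per group), with bars of 1 standard error and filled points where the adjusted p was under 0.05. Points lie mostly right of 0, and 3 of them are filled: Psmd14 in Eµ-MTCP1 and Psma5 and Psme2 in Eµ-TCL1 mice.

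Mouse by mouse, the median log2 difference of the 43 members outside the inducible 5 from the wildtype mean was 0.33, 0.22 and 0.33 in Eµ-MTCP1 mice Z2551, Z2606 and Z2641. In Eµ-TCL1 mice B4376, B4437 and C1594 it was 0.39, 0.30 and 0.41. In wildtype mice Z2754, Z2755 and Z2785 it was -0.02, -0.07 and 0.07. All 6 transgenic mice thus lay above all 3 wildtype mice in these TMM-scaled values. The TMM factors were 0.912 to 1.015 in the transgenic and 1.021 to 1.179 in the wildtype mice, so they also separated the groups. Whether each mouse keeps its side without TMM scaling was not tested. Of the 48 members, Z2754 was the lowest of all 9 mice in 20, Psmb5, Psme2, Psmb8 and Psmb3 among them, and the highest in 7. Wildtype mice Z2755 and Z2785 were lowest in 13 and 5 members. Without Z2754 the median of the 43 other members for the mean of both models was 0.29 in place of 0.34, that of the inducible 5 was 0.35 in place of 0.50, and 1, 0 and 1 members were called in Eµ-MTCP1, Eµ-TCL1 and the mean of both. These counts are not set against all genes called in the same fit, so they show no loss particular to the members. The plasma cell transcription factor gene Prdm1 separated the groups in the same way, with 65.6, 122 and 28.5 CPM in Eµ-MTCP1 mice, 63.4, 41.0 and 73.9 in the Eµ-TCL1 mice and 12.1, 13.8 and 24.4 in wildtype mice, and rose by 1.97 ± 0.45 on the log2 scale for the mean of both models (edgeR adjusted p = 0.0167). It was the only one of 4 plasma cell markers called in any comparison with wildtype. Their summed level overlapped, at 329 to 2884 CPM in Eµ-MTCP1 mice, 101 to 1942 in Eµ-TCL1 mice and 772 to 1297 in wildtype mice, and their part in the member values was not tested. The proliferation markers Mki67 and Tyms also separated all transgenic from all wildtype mice, while the others of the 8 listed overlapped. For the mean of both models Mki67 rose by 1.47 ± 0.41 (edgeR adjusted p = 0.0417), and Tyms, at 1.21 ± 0.37, was not called. The part of proliferation in the member values was not tested. The median over all genes tested stayed between -0.05 and 0.02 in each mouse. The inducible 5 spread more widely, with 0.43, -0.07 and 0.48 in Eµ-MTCP1, 1.12, 0.77 and 0.26 in Eµ-TCL1 and -0.26, -0.08 and 0.34 in wildtype mice. Their groups overlapped, since Z2785 of the wildtype group lay above Z2606 and C1594 of the transgenic groups.

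**Figure D2:**
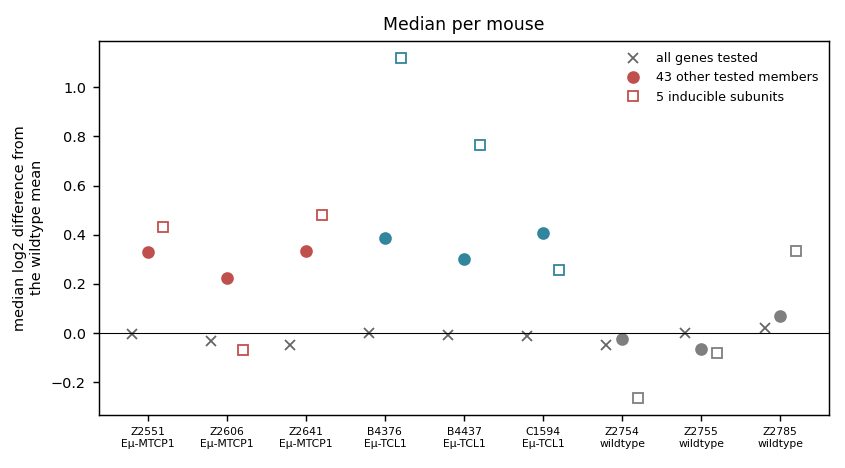
Median log2 difference of TMM-scaled CPM from the wildtype mean (y axis) in each of the 9 mice (x axis), for all genes tested (crosses), the 43 other tested members (circles) and the 5 inducible subunits (squares). Circles lie between 0.22 and 0.41 in the transgenic mice and between -0.07 and 0.07 in wildtype mice, while the squares of the groups overlap.

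Of the inducible subunits, only Psme2 was called, and only against wildtype in Eµ-TCL1 mice. Psme2 encodes the beta subunit of PA28, which opens the core without using ATP. It stood at 626, 542 and 550 CPM in the Eµ-MTCP1 mice, at 945, 673 and 554 CPM in the Eµ-TCL1 mice and at 327, 387 and 476 CPM in the wildtype mice. Every transgenic mouse was above every wildtype mouse. Psme2 rose in Eµ-TCL1 mice by 0.87 ± 0.24 (log2 fold change ± SE, 1.83-fold, edgeR adjusted p = 0.0497), and its value in Eµ-MTCP1 mice was 0.53 ± 0.24 (adjusted p = 0.202). The call in Eµ-TCL1 mice was lost without any 1 of 8 libraries, all but that of C1594, with adjusted p from 0.0551 to 0.167 and log2 fold changes from 0.63 to 1.02. It held in 6 of all 19 alternatives. The near copy Psme2b, which could take reads of Psme2, had a log2 fold change of 0.26 ± 0.31 in Eµ-TCL1 mice. Psme1, which encodes the alpha subunit of PA28, was measured at 484, 335 and 526 CPM in Eµ-MTCP1 mice, 566, 524 and 399 in the Eµ-TCL1 mice and 328, 311 and 453 in wildtype mice. The groups of Psme1 overlapped, and its log2 fold changes of 0.30 ± 0.24 and 0.45 ± 0.24 were not called.

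Psmb8 encodes the inducible subunit that takes the place of Psmb5. It had 1111, 944 and 1165 CPM in Eµ-MTCP1 mice, 1814, 1466 and 1175 in the Eµ-TCL1 mice and 718, 815 and 991 in wildtype mice. All Eµ-TCL1 mice lay above all mice of the other groups, the nearest being C1594 at 1175 and Z2641 at 1165 CPM. The log2 fold change was 0.82 ± 0.23 in Eµ-TCL1 mice, just outside the threshold (edgeR adjusted p = 0.0508, 0.00348 to 0.168 over the 19 alternatives), and 0.35 ± 0.23 in Eµ-MTCP1 mice (adjusted p = 0.366). The direct difference between the models, 0.47 ± 0.23 higher in Eµ-TCL1 mice, was not called (adjusted p = 0.788). Psmb9, the replacement for Psmb6, had 311, 187 and 209 CPM in Eµ-MTCP1 mice, 445, 334 and 235 in the Eµ-TCL1 mice and 161, 185 and 254 in wildtype mice. Psmb10, the replacement for Psmb7, had 258, 179 and 220 CPM in Eµ-MTCP1 mice, 395, 267 and 244 in the Eµ-TCL1 mice and 175, 214 and 309 in wildtype mice. For both genes the groups overlapped, and no comparison passed the test. Their log2 fold changes in Eµ-TCL1 mice were 0.76 ± 0.29 for Psmb9 and 0.38 ± 0.27 for Psmb10. In Eµ-MTCP1 mice they were 0.24 ± 0.29 and -0.09 ± 0.27.

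Eµ-TCL1 mouse B4376 held the highest value of all 9 mice in each of the 5 inducible genes. The same mouse was highest for Tap1, the peptide transporter gene beside Psmb9, at 608 CPM against 193 to 411 CPM elsewhere, and for the interferon signalling gene Irf1, at 404 CPM against 90.4 to 246 CPM. It also held the highest summed level of 6 myeloid markers, 1294 CPM, where the ranges were 378 to 782 CPM in Eµ-MTCP1 mice, 139 to 1294 in Eµ-TCL1 mice and 683 to 1156 in wildtype mice. Its summed level of 6 T cell markers was 49.3 CPM, against 2.49 to 23.1 CPM elsewhere. These sums were 2.83 to 23.1 CPM in Eµ-MTCP1 mice, 8.38 to 49.3 in Eµ-TCL1 mice and 2.49 to 5.43 in wildtype mice. All Eµ-TCL1 but not all Eµ-MTCP1 mice thus lay above wildtype. None of these markers was at 0 in all libraries, and their part in the inducible values was not tested. Without B4376 the median log2 fold change of the inducible 5 in Eµ-TCL1 mice was 0.51 in place of 0.76, and that of the other 43 members was 0.38 in place of 0.40. Psmb8 then had a log2 fold change of 0.65 (edgeR adjusted p = 0.149).

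**Figure D3:**
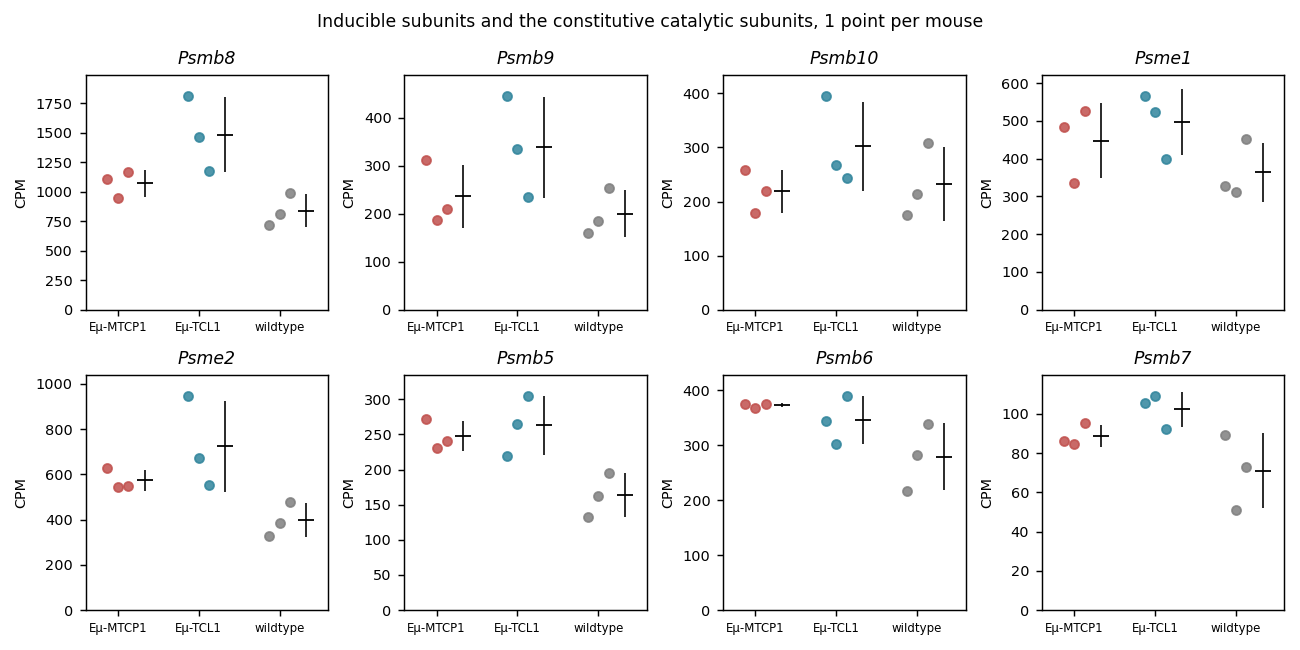
TMM-scaled CPM (y axis, from 0) of the 5 inducible genes and of the constitutive catalytic genes Psmb5, Psmb6 and Psmb7, 1 point per mouse in Eµ-MTCP1, Eµ-TCL1 and wildtype groups, with the mean and SD beside the points. Psme2 and Psmb5 separate all transgenic from all wildtype mice, while the groups overlap for Psmb9, Psmb10 and Psme1.

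The constitutive cutting subunits were the counterparts for comparison. Psmb5, which carries the chymotrypsin-like activity, had 272, 231 and 240 CPM in Eµ-MTCP1 mice, 220, 265 and 305 in the Eµ-TCL1 mice and 133, 163 and 195 in wildtype mice. No transgenic mouse overlapped with a wildtype mouse, and Psmb5 rose for the mean of both models by 0.64 ± 0.18 (1.56-fold, edgeR adjusted p = 0.0397). This call was lost without any 1 of Z2551, B4437, C1594, Z2754 or Z2755, with adjusted p from 0.0677 to 0.156, and held in 10 of 18 alternatives. Its values in the single models were 0.60 ± 0.20 and 0.69 ± 0.20 and were not called. Psmb6, which carries the caspase-like activity, had 375, 368 and 375 CPM in Eµ-MTCP1 mice, 345, 302 and 389 in the Eµ-TCL1 mice and 217, 282 and 338 in wildtype mice. Psmb7, which carries the trypsin-like activity, had 86.4, 84.8 and 95.2 CPM in Eµ-MTCP1 mice, 106, 109 and 92.2 in the Eµ-TCL1 mice and 89.3, 51.2 and 72.7 in wildtype mice. For the mean of both models their log2 fold changes were 0.36 ± 0.18 and 0.42 ± 0.18, neither of them called.

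Inducible and constitutive members of each pair can be set against each other within a mouse, as the share of the pair's TPM that came from the inducible gene. Psmb8 made up 79.4%, 79.8% and 81.7% of Psmb8 plus Psmb5 in Eµ-MTCP1, 87.9%, 83.7% and 78.4% in Eµ-TCL1 and 82.6%, 82.1% and 82.5% in wildtype mice. Psmb9 made up 55.4%, 40.0% and 55.7% of its pair in Eµ-MTCP1, 65.3%, 61.4% and 44.3% in Eµ-TCL1 and 55.8%, 48.5% and 50.2% in wildtype mice. The level of this share depended on the reference, with a wildtype mean of 51.5 ± 3.81% on the coding and 36.4 ± 3.48% on the standard reference. The wildtype ratio of Psmb9 to Psmb6 was accordingly 1.07 on the former and 0.574 on the latter, so which gene of the pair was higher turned. Psmb10 made up 80.9%, 74.8% and 77.8% of its pair in Eµ-MTCP1, 85.7%, 79.8% and 79.7% in Eµ-TCL1 and 76.7%, 86.0% and 85.7% in wildtype mice. The mean of all 6 transgenic mice minus the wildtype mean was -0.609 percentage points for the first pair, 2.23 for the second and -3.04 for the third. Each of these differences was smaller than the pooled SD within groups, which was 2.86, 8.58 and 4.05 percentage points. The average over both models covers unlike groups. For Psmb8, the means were 80.3 ± 1.25% for Eµ-MTCP1 mice, 83.3 ± 4.78% for the Eµ-TCL1 group and 82.4 ± 0.269% for wildtype mice. Every Eµ-MTCP1 mouse lay below every wildtype mouse, while the Eµ-TCL1 mice lay on both sides, and most of the pooled SD came from the Eµ-TCL1 group. On the standard reference Eµ-MTCP1 and wildtype mice overlapped, with Z2641 at 79.89% and Z2754 at 79.87%.

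The remaining beta and the alpha subunits build the rings of the core. The 4 beta subunits without cutting activity, Psmb1 to Psmb4, had log2 fold changes from 0.45 (Psmb2) to 0.62 (Psmb3) for the mean of both models, and in all 4 every transgenic mouse lay above every wildtype mouse. None of the 4 was called in the fit reported here, although each had an unadjusted p under 0.05. Psmb3 had 300, 247 and 426 CPM in Eµ-MTCP1 mice, 275, 324 and 342 in the Eµ-TCL1 mice and 167, 217 and 237 in wildtype mice. Psmb2 had 217, 199 and 247 CPM in Eµ-MTCP1 mice, 216, 243 and 211 in the Eµ-TCL1 mice and 155, 164 and 169 in wildtype mice. The 7 alpha subunits had a median log2 fold change of 0.37 for the mean of both models, and of 0.24 without wildtype mouse Z2755.

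Psma5, an alpha ring subunit, was the core member with the lowest adjusted p. It had 151, 152 and 149 CPM in Eµ-MTCP1 mice, 173, 169 and 140 in the Eµ-TCL1 mice and 109, 83.0 and 108 in wildtype mice, with no overlap between transgenic and wildtype mice. Psma5 rose in Eµ-TCL1 mice by 0.68 ± 0.17 (1.61-fold, edgeR adjusted p = 0.0341) and for the mean of both models by 0.64 ± 0.15 (adjusted p = 0.0221). In Eµ-MTCP1 mice it missed the threshold at 0.59 ± 0.17 (adjusted p = 0.0598). The call in Eµ-TCL1 mice was lost without any 1 of Z2551, Z2606, B4376, B4437, Z2754, Z2755 or Z2785, with adjusted p from 0.0564 to 0.149. The call for the mean of both was lost without B4437, Z2754 or Z2755, with adjusted p from 0.0517 to 0.126. These calls held in 9 of 19 and 13 of 18 alternatives. Psma3, another alpha subunit, had 212, 217 and 217 CPM in Eµ-MTCP1 mice, 131, 248 and 230 in the Eµ-TCL1 mice and 306, 167 and 164 in wildtype mice, and its log2 fold change for both models was -0.02 ± 0.26. Wildtype mouse Z2754, with the highest mitochondrial share, held the highest Psma3 of all mice.

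The regulatory particle holds Psmd14, the deubiquitinase that removes the ubiquitin chain before degradation. It had 227, 146 and 241 CPM in Eµ-MTCP1 mice, 157, 119 and 145 in the Eµ-TCL1 mice and 118, 69.8 and 68.0 in wildtype mice. Every transgenic mouse was above every wildtype mouse, with B4437 at 119 CPM only just above Z2754 at 118 CPM. Psmd14 rose in Eµ-MTCP1 mice by 1.26 ± 0.27 (2.39-fold, edgeR adjusted p = 0.0172) and for the mean of both models by 0.99 ± 0.24 (adjusted p = 0.0238). In Eµ-TCL1 mice its log2 fold change was 0.72 ± 0.27 (adjusted p = 0.128). The direct difference of Eµ-TCL1 minus Eµ-MTCP1, -0.54 ± 0.27, was not called (adjusted p = 0.797). The call in Eµ-MTCP1 mice was lost without any 1 of Z2551, Z2641, Z2755 or Z2785, with adjusted p from 0.0601 to 0.0896, and that for the mean of both without Z2551, Z2755 or Z2785, with adjusted p from 0.0528 to 0.129. They held in 15 of 19 and 15 of 18 alternatives. The summed level of 8 proliferation markers, none at 0 in all libraries, was 532 to 1729 CPM in Eµ-MTCP1 mice, 694 to 993 in Eµ-TCL1 mice and 502 to 678 in wildtype mice. Within Eµ-MTCP1 mice both that sum and Psmd14 were highest in Z2641 and lowest in Z2606. Within Eµ-TCL1 mice the order was the opposite, since the sum was highest in B4437, at 993 CPM, where Psmd14 was lowest, and lowest in B4376, at 694 CPM, where Psmd14 was highest. The part of proliferating cells in the Psmd14 values was not tested.

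The other subunits of the regulatory particle did not pass the test in any comparison of the fit reported here. Psmd8 was called in 4 of 19 alternatives in Eµ-TCL1 mice and in 4 of 18 for the mean of both. For Psmd1 these counts were 3 and 2. Psmd3 was called in 2 of 19 alternatives in Eµ-MTCP1 mice and in 2 of 18 for the mean of both, and Psmd13 in 1 of 18 for the mean of both. The 6 ATPases of its base, Psmc1 to Psmc6, lay close to 0, with log2 fold changes for the mean of both models from -0.28 (Psmc6) to 0.25 (Psmc5) and a median of 0.17. Psmc6 had 47.5, 49.9 and 58.8 CPM in Eµ-MTCP1 mice, 52.7, 50.5 and 52.8 in the Eµ-TCL1 mice and 100.2, 49.0 and 40.7 in wildtype mice, so that Z2754 alone was high among the wildtype mice. Without Z2754 the log2 fold change of Psmc6 was 0.21 ± 0.17, above 0. Psmc5 had 190, 210 and 244 CPM in Eµ-MTCP1 mice, 237, 218 and 248 in the Eµ-TCL1 mice and 173, 196 and 199 in wildtype mice. The 11 non-ATPase subunits of base and lid had a median of 0.42. Psmd12, a lid subunit, was lowest among them at -0.38 ± 0.18. It had 57.6, 78.9 and 67.4 CPM in Eµ-MTCP1 mice, 71.1, 62.1 and 70.0 in the Eµ-TCL1 mice and 111, 81.7 and 71.2 in wildtype mice. Without Z2754 the log2 fold change of Psmd12 was -0.18.

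The alternative activators and the inhibitor of the core were not called in any comparison with wildtype. Psme3 encodes the nuclear activator PA28-gamma, Psme4 encodes PA200, and Psmf1 encodes an inhibitor of the core. For the mean of both models the log2 fold changes were -0.30 ± 0.24, -0.63 ± 0.24 and 0.25 ± 0.16. Psme3 had 46.7, 32.2 and 35.6 CPM in Eµ-MTCP1 mice, 29.0, 43.1 and 44.4 in the Eµ-TCL1 mice and 66.3, 43.2 and 33.02 in wildtype mice. Without Z2754 its log2 fold change was 0.0042 ± 0.23. Psme4 had 20.8, 22.4 and 19.8 CPM in Eµ-MTCP1 mice, 24.2, 22.2 and 22.5 in the Eµ-TCL1 mice and 50.9, 28.2 and 22.8 in wildtype mice. Without Z2754 the log2 fold change of Psme4 was -0.22, so the sizes of both activator values rested on 1 wildtype mouse. With library size alone Psme4 was called lower, at -0.82 (edgeR adjusted p = 0.0491). Psmf1 had 66.3, 51.8 and 60.8 CPM in Eµ-MTCP1 mice, 56.5, 65.2 and 65.9 in the Eµ-TCL1 mice and 50.1, 45.5 and 58.0 in wildtype mice.

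The assembly chaperones among the members, Psmg1 to Psmg4 for the core and Psmd5, Psmd9 and Psmd10 for the base, had a median log2 fold change of 0.18 for the mean of both models. Without Z2754 it was 0.10 and without Z2785 it was 0.31. Psmg3 was highest at 0.69 ± 0.23 and Psmg2 lowest at -0.21 ± 0.22, neither of them called. Psmg3 had 36.5, 26.5 and 24.9 CPM in Eµ-MTCP1 mice, 27.5, 25.4 and 24.6 in the Eµ-TCL1 mice and 12.6, 17.8 and 20.8 in wildtype mice, with no overlap. Psmg2 had 36.7, 32.0 and 27.2 CPM in Eµ-MTCP1 mice, 24.0, 37.0 and 35.9 in the Eµ-TCL1 mice and 47.8, 27.9 and 35.4 in wildtype mice.

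**Figure D4:**
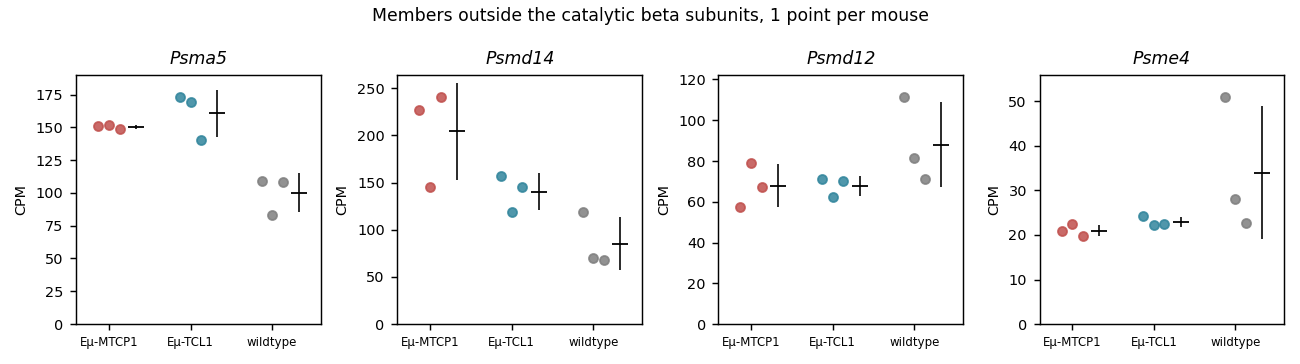
TMM-scaled CPM (y axis, from 0) of Psma5, Psmd14, Psmd12 and Psme4, 1 point per mouse in Eµ-MTCP1, Eµ-TCL1 and wildtype groups, with the mean and SD beside the points. All transgenic mice lie above all wildtype mice for Psma5 and Psmd14, and 1 wildtype mouse stands above the rest at 111 CPM for Psmd12 and 50.9 CPM for Psme4.

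The models were also compared with each other. No member was called in Eµ-TCL1 against Eµ-MTCP1 mice by edgeR, and DESeq2 called 0 members too, while edgeR called 0.0445% of all genes in either direction. At an unadjusted p under 0.05 there was 1 member of 48, against 6.44% of all genes. The member with the lowest p was Psmg1, a chaperone of the alpha ring, at 0.55 ± 0.22 (edgeR adjusted p = 0.697). Medians of the direct log2 difference were 0.46 over the inducible 5 and 0.08 over the other 43 members. Without B4376 the inducible median was 0.22. All 5 inducible genes had positive values, from 0.15 for Psme1 to 0.52 for Psmb9. These values carry standard errors of 0.23 to 0.29, and a lack of calls does not show that the models were alike.

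The size of these values depended on how libraries were scaled. With library size alone or on TPM, the median of all genes against wildtype shifted to between -0.15 and -0.30, and the median of the 43 other members in Eµ-MTCP1 mice became 0.05 with library size and turned to -0.08 on TPM. Relative to the median of all genes, it was 0.30 and 0.22 in these fits. The median of the inducible 5 became 0.077 and 0.0029 in Eµ-MTCP1 mice, 0.63 and 0.40 in the Eµ-TCL1 mice and 0.32 and 0.21 for the mean of both. Relative to the median of all genes these values were 0.33 and 0.30, 0.78 and 0.62, and 0.53 and 0.47. A change of library scaling shifts members and all genes alike, so values relative to that median do not test the scaling. The base ATPases and the assembly chaperones also turned below 0 under both scalings for the mean of both models, and stayed above the median of all genes.

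**Figure D5:**
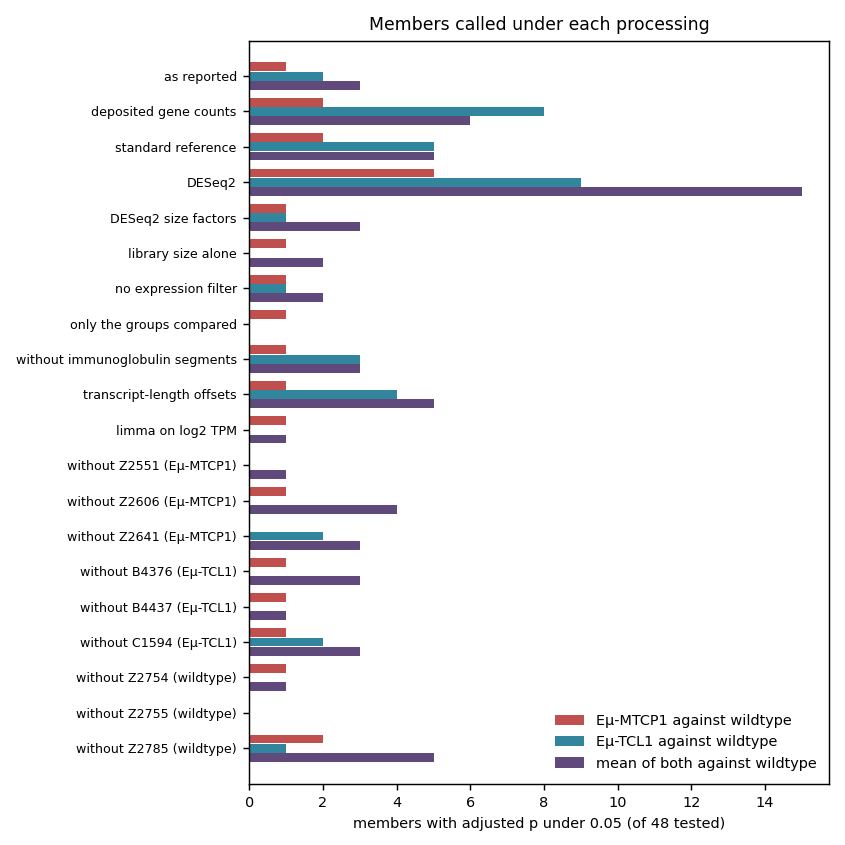
Number of the 48 tested members with an adjusted p under 0.05 (x axis) under each processing (y axis), in Eµ-MTCP1, Eµ-TCL1 and the mean of both models against wildtype. Counts run from 0 without wildtype mouse Z2755 to 15 for the mean of both models with DESeq2.

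Other genes of the pathway were taken from lists. Of 11 genes for assembly and associated factors, 10 were measured and tested, of which 0 were called. Ubiquitin shuttles and the VCP segregase (10 tested), ubiquitin genes (3 of 4 tested) and regulators of the constitutive subunits (4 tested) also had 0 calls in each comparison. Nfe2l1, the factor that raises subunit genes when the proteasome is inhibited, had log2 fold changes of 0.35 ± 0.29 in Eµ-MTCP1 and 0.84 ± 0.29 in Eµ-TCL1 mice and was not called. Of the 10 genes for peptide transport and loading, 0 were called. Tap1 and Tap2, which lie beside Psmb8 and Psmb9 in the MHC region, had -0.40 ± 0.34 and 0.11 ± 0.21 in Eµ-MTCP1 and 0.22 ± 0.33 and 0.31 ± 0.21 in Eµ-TCL1 mice.

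Several interferon signalling genes were lower in the models. Of 11 tested, 3 fell in Eµ-MTCP1 mice (3.94% of all genes) and 4 in Eµ-TCL1 mice (4.08%), with median log2 fold changes of -0.85 and -0.63. For the mean of both models 5 fell (6.14% of all genes), with a median of -0.77, while the inducible 5 had a median of 0.50. The interferon-gamma receptor genes Ifngr1 and Ifngr2 fell by 1.11 ± 0.16 and 1.13 ± 0.21 on the log2 scale (edgeR adjusted p = 0.00163 and 0.00589). Stat2, a signal transducer of interferon receptors, fell by 1.39 ± 0.24, and the kinase gene Jak1 fell by 0.77 ± 0.16. The transcription factor gene Irf8 also fell, with a log2 fold change of -1.501 ± 0.38, and had 171, 118 and 253 CPM in Eµ-MTCP1 mice, 207, 338 and 77.0 in the Eµ-TCL1 mice and 422, 638 and 583 in wildtype mice. Ifngr1 had 33.6, 42.5 and 39.9 CPM in Eµ-MTCP1 mice, 51.6, 43.6 and 34.1 in the Eµ-TCL1 mice and 95.2, 88.5 and 80.8 in wildtype mice. No transgenic mouse overlapped with a wildtype mouse. Irf1 and Nlrc5, which act directly on inducible subunit or MHC class I genes, were not called, with -0.25 ± 0.37 and -0.05 ± 0.41. The summed level of 6 myeloid markers given above was lowest in C1594 at 139 CPM, and that of 4 neutrophil markers was 86.3 to 1682 CPM in Eµ-MTCP1 mice, 19.6 to 129 in Eµ-TCL1 mice and 211 to 3001 in wildtype mice. The summed level of 4 dendritic cell markers was 3.62 to 11.5 CPM in Eµ-MTCP1 mice, 2.10 to 7.04 in Eµ-TCL1 mice and 14.5 to 31.7 in wildtype mice, so that the models did not overlap with wildtype. Among these, the receptor gene Flt3 fell by 2.43 ± 0.51 on the log2 scale for the mean of both models (edgeR adjusted p = 0.0114). The summed level of 4 natural killer cell markers was 1.15 to 11.3 CPM in Eµ-MTCP1 mice, 2.24 to 38.1 in Eµ-TCL1 mice and 18.1 to 41.9 in wildtype mice, so that Eµ-MTCP1 but not Eµ-TCL1 mice lay apart from wildtype. None of these markers was at 0 in all libraries, and their part in the interferon gene values was not tested.

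Counting also bore on single members. Psmb7, which has annotated pseudogenes, had 473 to 890 reads on the coding reference, 599 to 1117 on the standard reference and 225 to 443 in the deposited gene counts, so its level is uncertain where reads can be shared with near copies. Psme2 had 2642 to 6844 reads on the coding reference and its near copy Psme2b 605 to 1426, and in the deposited gene counts Psme2b had 1196 to 2651. Psmd14 and Psma5 had 451 to 1460 and 719 to 1381 reads on the coding reference, and 576 to 1926 and 831 to 1687 in the deposited gene counts.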

How the data were processed

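The authors quantified each library with Salmon (version 1.0.0 per the labels) on a reference of coding sequences with human transgenes added and on a standard mouse reference, and deposited estimated counts and TPM values per transcript. Whole counts per gene were deposited by the authors, and the tool names in the submitters' processing notes include HISAT2 and featureCounts. Normalized values on a log2-like scale were deposited by the authors after tximport and DESeq2, and were used here only for the transgene check and for choosing members. The fold changes and p-values that the authors deposited beside them were not used.

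Estimated counts were summed per gene (GENCODE M21) and rounded. Genes passing filterByExpr were tested in 1 quasi-likelihood fit of all 9 libraries with edgeR 4.0.16 (R 4.3.3), TMM scaling, two-sided, with Benjamini-Hochberg adjustment over 11247 genes. The fits were tested on simulated data. Alternatives were DESeq2 1.42.0, limma 3.58.1 on log2(TPM + 1), other scalings, filters and references, and leaving out each library. Named with values in every mouse were the inducible subunits, their counterparts, all called members and the extremes of each class. Members and lists were chosen with earlier results of these data known. Each mouse is 1 biological replicate. No further columns were left unmapped (0).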

Additional observations from a re-analysis of the deposited data

Results flagged for a closer look

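Psmd5, which encodes an assembly chaperone of the regulatory particle, had 55.7, 59.6 and 62.1 CPM in the Eµ-MTCP1 mice, 97.2, 74.3 and 64.4 CPM in the Eµ-TCL1 mice and 61.9, 76.8 and 49.5 CPM in the wildtype mice. It was singled out because every Eµ-TCL1 mouse lay above the wildtype mean of 62.7 CPM and every Eµ-MTCP1 mouse below it, although all 3 Eµ-MTCP1 mice and 2 of the 3 Eµ-TCL1 mice lay within the wildtype range. The log2 difference of Eµ-TCL1 from Eµ-MTCP1 mice was 0.41 ± 0.22 and did not pass the direct test (edgeR quasi-likelihood, adjusted p = 0.814). Without B4376 it was 0.23 ± 0.23 (adjusted p = 0.963).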

How the results depend on the processing

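Called members numbered 2, 8 and 6 in Eµ-MTCP1, Eµ-TCL1 and the mean of both models against wildtype with the deposited gene counts, in place of 1, 2 and 3. They numbered 2, 5 and 5 on the standard reference, 5, 9 and 15 with DESeq2 and 1, 4 and 5 with transcript-length offsets. All of these were higher, and the shares of all genes called higher in the same fits were 5.83%, 5.83% and 7.45%, then 5.64%, 5.27% and 7.17%, then 8.41%, 8.31% and 10.5% with DESeq2, and 4.82%, 4.90% and 6.20%. With DESeq2 the members' own shares were 10.4%, 18.8% and 31.2%. With DESeq2 size factors or no expression filter 1 member was called in Eµ-TCL1 mice, and with library size alone, only the groups compared or limma on TPM 0 were. The shares of all genes called higher there were 4.96%, 3.95%, 3.98%, 5.46% and 2.75%, in the same order. For the mean of both, limma on TPM called 1, against 3.66% of all genes called higher. Leaving out 1 library gave 0 to 2, 0 to 2 and 0 to 5 calls. Counts with 1 library left out are not set here against the shares of all genes, so they show no change particular to the members. Without wildtype mouse Z2755 the counts were 0 in all 3 comparisons, and without Z2785 they were 2, 1 and 5. The direct comparison of the models gave 0 calls in each of the 19 alternatives. The cause of these differences was not tested.

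Under library size alone and limma on TPM, median log2 fold changes of the 43 other members were 0.048 and -0.075 in Eµ-MTCP1, 0.25 and 0.085 in Eµ-TCL1 and 0.14 and 0.045 for the mean of both. In the same 2 fits the mean of both gave -0.0215 and -0.15 for base ATPases, 0.23 and 0.090 for non-ATPases, 0.25 and 0.18 for constitutive catalytic, 0.18 and 0.11 for alpha and 0.39 and 0.31 for other beta subunits. Limma on TPM also gave 0.40 for the inducible 5 in Eµ-TCL1 mice, 0.24 for PA28 and -0.067 for chaperones. Relative to the median of all genes, medians of the 43 other members stayed between 0.22 and 0.46 under all alternatives of the 3 comparisons with wildtype. Subtracting this median takes out a change of library scaling, so the range is no test of the scaling. Between the models the other members had 0.14 on the standard reference and 0.17 with library size alone. Leaving out 1 library gave 0.21 to 0.32 in Eµ-MTCP1, 0.33 to 0.42 in Eµ-TCL1 and 0.24 to 0.35 for the mean of both over the other members, and 0.31 to 0.45 over non-ATPases.

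Among log2 fold changes of named members over all alternatives, 1362 values kept direction and side of the threshold, 22 newly passed it, 43 no longer passed it and 73 changed sign, of which 0 were called in either fit. With the deposited gene counts these were -0.19 for Psma3 in Eµ-MTCP1 mice, 0.015 for Psmc6 and 0.051 for Psmd12 between the models, 0.0073 for Psmg2 in Eµ-TCL1 mice. With library size alone these were -0.21 for Psma3, -0.056 for Psmc5 and -0.0058 for Psmf1 in Eµ-MTCP1 mice, 0.010 for Psma3, 0.047 for Psmb3, 0.094 for Psmc6 and 0.089 for Psmd12 between the models, -0.030 for Psmb10 for the mean of both. With limma on TPM these were -0.30 for Psma3, -0.17 for Psmc5, -0.069 for Psme1 and -0.48 for Psmf1 in Eµ-MTCP1 mice, 0.14 for Psmb3 and 0.068 for Psmd12 between the models, -0.25 for Psmf1 in Eµ-TCL1 mice, -0.13 for Psmb10, -0.069 for Psmc5 and -0.37 for Psmf1 for the mean of both. With no expression filter these were 0.0062 for Psmc6 and 0.0011 for Psmd12 between the models. With only the groups compared these were -0.022 for Psma3 in Eµ-MTCP1 mice, 0.0018 for Psmc6 between the models. On the standard reference these were -0.15 for Psma3 in Eµ-MTCP1 mice, 0.077 for Psma3, 0.014 for Psmb3, 0.047 for Psmc6 and 0.068 for Psmd12 between the models. With transcript-length offsets these were 0.048 for Psmc6 and -0.25 for Psmf1 in Eµ-MTCP1 mice, 0.024 for Psmb3 and -0.026 for Psmg2 between the models, -0.084 for Psmf1 in Eµ-TCL1 mice, -0.17 for Psmf1 for the mean of both. Leaving out 1 library gave -0.16 to 0.37 for Psma3, -0.26 to 0.17 for Psmb10, -0.013 to 0.45 for Psmb9, -0.52 to 0.21 for Psmc6, -0.42 to 0.0034 for Psmg2 in Eµ-MTCP1 mice. Leaving out 1 library gave -0.26 to 0.15 for Psma3, -0.056 to 0.096 for Psmb2, -0.21 to 0.19 for Psmb3, -0.031 to 0.20 for Psmb5, -0.064 to 0.088 for Psmc6, -0.11 to 0.12 for Psmd12, -0.022 to 0.28 for Psme1, -0.022 to 0.15 for Psmf1, -0.097 to 0.19 for Psmg2, -0.29 to 0.0062 for Psmg3 between the models. Leaving out 1 library gave -0.27 to 0.28 for Psma3, -0.52 to 0.21 for Psmc6, -0.40 to 0.021 for Psmg2 in Eµ-TCL1 mice. Leaving out 1 library gave -0.21 to 0.33 for Psma3, -0.031 to 0.40 for Psmb10, -0.52 to 0.21 for Psmc6, -0.41 to 0.012 for Psmg2 for the mean of both. No paired analysis was made, since each library came from a different mouse and the labels name no pairs. At 3 mice per group the standard errors of members' log2 fold changes limit what single genes can show.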
